A study of Mus musculus with 10 samples.

Results

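The comparison described here is that of whole liver from mice given SSO with whole liver from mice given its vehicle, both after partial hepatectomy (PHx), an operation that takes out most liver lobes and leaves a remnant to regrow. Genes were kept where at least 10 counts were present in at least 4 of the 8 libraries, which left 15935 of the 55487 genes in the count table. Mice of both groups were C57BL/6J animals labelled as male and 8 weeks old. They received SSO at 40 mg/kg, or the solvent alone, on the day preceding PHx (1 day), and tissue was collected 48 hours after the operation. Surgery, strain and age are shared by both groups, and the labels name no allele or diet that differs between them. The labels give 8 mice per group, whereas the table holds 4 libraries per group, named here vehicle 1 to 4 and SSO 1 to 4. Each group has 1 record, its columns were assigned by name, and nothing states that the columns are separate animals, so the p-values measure the spread between these libraries. What the letters SSO stand for is not stated in the labels, and in the field they usually mean sulfosuccinimidyl oleate, a compound that binds the fatty acid receptor CD36.

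Hepatocytes take up fatty acids from blood, partly through CD36, and also make them from citrate and acetate through ATP citrate lyase, acetyl-CoA carboxylase and fatty acid synthase. Genes of this route and of cholesterol synthesis are known targets of the sterol regulatory element binding proteins (SREBPs). The precursors of these factors sit in the membrane of the endoplasmic reticulum. After PHx, hepatocytes that were resting enter the cell cycle, replicate their DNA and divide, while lipid collects in them for a time, and Kupffer cells and recruited monocytes supply priming cytokines such as interleukin 6.

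Libraries held 25204205 to 30388236 counts. The vehicle libraries resembled each other less than the SSO libraries did: the median SD of a gene between libraries was 0.474 log2 CPM (counts per 1000000) in vehicle and 0.251 in SSO. The first principal component, with 45.3% of the variance, placed vehicle 1 at -98.2 and vehicle 3 at -93.3, vehicle 4 at -3.5, vehicle 2 at 52.9 and the SSO libraries at 32.3 to 41.2. The second component, with 18.1%, placed vehicle 2 apart at -87.1 and all other libraries at -6.6 to 39.9. Vehicle 2 also had the fewest genes detected, 18104 against 19639 to 20864 in the others. Mitochondrially encoded transcripts took 4.99% to 22.5% of the counts in vehicle, with the highest share in vehicle 2, and 15.2% to 17.6% in SSO. All 8 libraries went against the label of male. Xist, the RNA of the inactive X chromosome, was present at 838 to 1688 CPM of the unscaled library total. Ddx3y, Kdm5d, Uty and Eif2s3y, genes of the Y chromosome, had 0 counts in every library. Since this holds for every library, leaving out those that go against the label would leave none. In whole tissue, fewer cells of a type and less RNA per cell cannot be told apart.

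SSO livers had higher levels of lipid synthesis genes, lower Cd36 and lower levels of several mitotic genes than vehicle livers. At an adjusted p under 0.05 in edgeR's quasi-likelihood test with Benjamini-Hochberg adjustment, 50 genes (0.314% of those tested) were higher in SSO and 21 (0.132%) were lower. An unadjusted p under 0.05 was reached by 1262 genes (7.92%) that were higher and 1993 (12.5%) that were lower. In 975 genes (6.12%) every SSO library lay above every vehicle library, and in 889 (5.58%) every SSO library lay below. These percentages are the background for the gene lists that follow, and the median log2 fold change of all tested genes was -0.04.

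The 71 calls depended on the libraries and on the tool. Without vehicle 1, and without any 1 of the 4 SSO libraries, 0 genes passed in either direction, although 2043 to 2629 genes still had an unadjusted p under 0.05. Without vehicle 2 the counts were 1149 higher and 1515 lower, without vehicle 3 they were 15 and 1, and without vehicle 4 they were 132 and 225. DESeq2 called 456 higher and 766 lower, and limma-voom with sample weights 1073 and 1214. With library sizes as the only scaling, 33 genes were higher and 4 lower, and the median log2 fold change over all tested genes was -0.20. All 71 genes kept their direction in every one of these fits, and their largest adjusted p in a fit without 1 library was 0.203. Without the pair of vehicle libraries 1 and 3, which lie apart on the first component, 41 genes were higher and 12 lower, of which 28 were among the 71.

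Of 27 de novo lipogenesis genes, 8 rose, 0 fell, and 17 had an unadjusted p under 0.05, all higher in SSO. Their median log2 fold change was 1.12, against -0.04 over all tested genes. The called count lay between 0, without vehicle 1 or any 1 SSO library, and 18, without vehicle 2. Fasn encodes fatty acid synthase, which builds palmitate. Its level was 365, 735, 336 and 430 CPM in vehicle 1 to 4 and 1984, 4403, 1767 and 2681 CPM in SSO 1 to 4. All SSO libraries lay above all vehicle libraries, and vehicle 2 was the highest of its group. The log2 fold change was 2.54 ± 0.38 (SE), with an adjusted p of 0.0310 in edgeR.

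Acly encodes ATP citrate lyase, which supplies cytosolic acetyl-CoA. It was at 180, 239, 115 and 219 CPM in vehicle and at 678, 760, 655 and 614 CPM in SSO, a mean ratio of 3.6 (edgeR adjusted p = 0.0194). Acss2, which makes acetyl-CoA from acetate, was at 74.5, 185, 53.8 and 118 CPM in vehicle and at 556, 744, 535 and 593 CPM in SSO, a mean ratio of 5.63 (edgeR adjusted p = 0.0264). Neither gene overlapped between the groups. Elovl6, which lengthens palmitate, rose from 58.1 ± 28.9 to 241 ± 69.5 CPM (SD, n = 4, edgeR adjusted p = 0.0371), with vehicle 2 at 101 CPM and the other vehicle libraries at 41.8 to 47.0 CPM. Gpam, the first acyltransferase of glycerolipid synthesis, rose from 158 ± 37.1 to 504 ± 56.5 CPM. Aacs, which activates acetoacetate for lipid synthesis, rose from 52.4 ± 7.83 to 173 ± 42.4 CPM. Mid1ip1, which promotes the polymerisation of acetyl-CoA carboxylase, rose from 35.8 ± 7.82 to 88.7 ± 20.4 CPM, but 25.5% of its exon bases lie under exons of the opposite strand, and counting by strand is not stated.

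Pnpla3 encodes a lipid droplet protein of hepatocytes with lipase and acyltransferase activity, and lies at chr15:84167837-84187236 on the forward strand (GRCm38). It was at 1.49, 4.95, 2.80 and 0.926 CPM in vehicle and at 74.2, 44.0, 41.1 and 44.4 CPM in SSO. The group means differed 20.04-fold, and the log2 fold change was 4.34 ± 0.49 (SE, edgeR adjusted p = 0.0184). SSO 1 stood above the other 3 SSO libraries, all of which exceeded the highest vehicle library.

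Several lipogenic genes with large differences missed the threshold. Thrsp, a lipogenic cofactor related to Mid1ip1, was at 28.5, 181, 28.1 and 118 CPM in vehicle and at 749 to 1386 CPM in SSO, with an adjusted p of 0.0535 in edgeR. Lpin1, a phosphatidate phosphatase, had a log2 fold change of 2.74 ± 0.51 (adjusted p = 0.0649). Acaca, the cytosolic acetyl-CoA carboxylase, had 1.12 ± 0.21 (adjusted p = 0.0594). Scd1, which desaturates stearate, ranged from 148 to 1992 CPM in vehicle and from 2737 to 4837 CPM in SSO (adjusted p = 0.135). The groups did not overlap in any of these 4 genes. The regulators themselves overlapped between groups. Srebf1, which encodes SREBP1, was at 390 ± 103 CPM in vehicle and 554 ± 133 CPM in SSO (adjusted p = 0.283), and Mlxipl, which encodes the carbohydrate response factor ChREBP, ranged from 183 to 1393 CPM in vehicle and from 1231 to 1944 CPM in SSO (adjusted p = 0.226).

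Of 25 cholesterol synthesis genes, 6 rose, 0 fell, and 18 had an unadjusted p under 0.05, all higher in SSO, with a median log2 fold change of 0.86. Without 1 library the called count ranged from 0 to 16, the latter without vehicle 2. Nsdhl, a sterol dehydrogenase that acts late in the pathway, was at 62.2, 65.0, 66.0 and 66.8 CPM in vehicle and at 163, 180, 150 and 190 CPM in SSO. The 4 vehicle values were close together, all SSO values were higher, and the log2 fold change was 1.39 ± 0.15 (SE, edgeR adjusted p = 0.0184). Mvd, the mevalonate diphosphate decarboxylase, was at 53, 42.5, 50.9 and 53.3 CPM in vehicle and at 95.7, 139, 107 and 119 CPM in SSO (edgeR adjusted p = 0.0194). The other 4 called members were Acat2 and Pmvk, enzymes of the early pathway, Lss, which closes the sterol rings, and Dhcr7, which makes the last reduction. Their mean ratios were 2.32, 2.56, 2.37 and 1.90, and no vehicle library reached an SSO library in any of them. Srebf2, which encodes SREBP2, was at 71.5 ± 15.3 and 77.9 ± 7.71 CPM in vehicle and SSO, with overlap, and did not pass (edgeR adjusted p = 0.717).

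**Figure D1:**
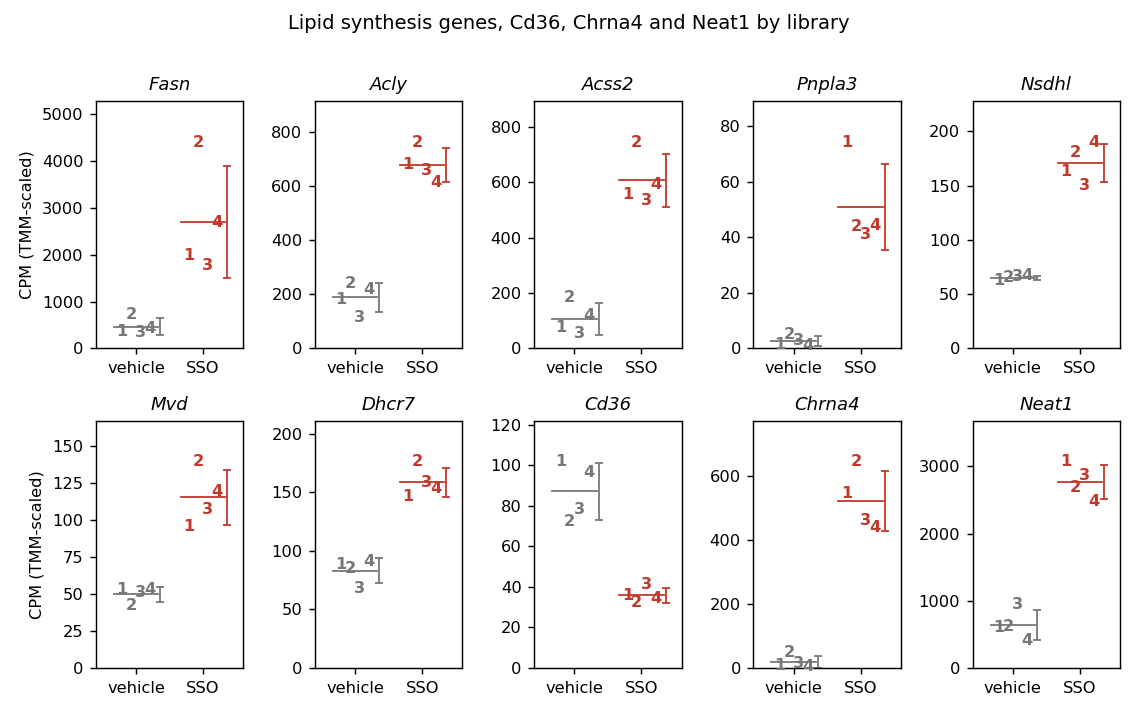
Levels in TMM-scaled CPM on linear axes from 0, with each library drawn as its number (grey, vehicle; red, SSO), the group mean as a line and the SD as a bar. In all 10 genes the 4 SSO libraries lie on one side of the 4 vehicle libraries, below them in Cd36 and above them in the other 9.

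The 250 bases before the RefSeq start of 3 of these genes (GRCm38.p6, read 5′ to 3′ on the strand of the gene) are shown as examples. Capitals mark CCAAT, or ATTGG where it lies on the other strand, the core of the box bound by NF-Y, a factor that works beside SREBPs in sterol genes. Fasn lies on the reverse strand at chr11:120824548-120824797, Mvd on the reverse strand at chr8:122443423-122443672 and Nsdhl on the forward strand at chrX:72918271-72918520.
Fasn: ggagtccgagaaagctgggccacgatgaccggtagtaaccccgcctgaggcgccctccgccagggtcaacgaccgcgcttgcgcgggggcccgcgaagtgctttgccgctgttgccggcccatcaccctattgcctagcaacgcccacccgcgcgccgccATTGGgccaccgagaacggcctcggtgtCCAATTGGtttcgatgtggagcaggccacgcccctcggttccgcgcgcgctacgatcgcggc
Mvd: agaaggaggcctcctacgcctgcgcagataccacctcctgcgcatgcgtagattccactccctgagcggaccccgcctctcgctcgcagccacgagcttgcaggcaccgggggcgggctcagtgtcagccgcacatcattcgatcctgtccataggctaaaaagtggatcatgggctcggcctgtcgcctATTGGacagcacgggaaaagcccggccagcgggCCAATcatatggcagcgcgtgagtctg
Nsdhl: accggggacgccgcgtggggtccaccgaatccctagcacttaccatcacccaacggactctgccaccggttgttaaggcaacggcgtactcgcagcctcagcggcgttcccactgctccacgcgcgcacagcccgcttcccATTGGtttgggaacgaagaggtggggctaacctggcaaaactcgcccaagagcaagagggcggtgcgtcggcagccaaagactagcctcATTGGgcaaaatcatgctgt
The Fasn window holds 3 such matches, of which 2 overlap within 1 run of 8 capitals, and the Mvd and Nsdhl windows hold 2 each. The other risen genes whose matches were counted singly held fewer, with 1 match each in Lss, Acss2 and Pnpla3 and 0 in Acly, Elovl6 and Chrna4. Matches were not counted singly in the remaining genes that rose. CCAAT on either strand was present in 16 of the 17 cholesterol synthesis genes that had a window in the RefSeq table, and in 37.5% of all 27025 genes with one. It was present in 13 of the 22 lipogenesis genes with a window (59.1%), and in 19 of the 41 with a window among the 50 genes that rose (46.3%). Among the 21 genes that fell, 13 of the 18 with a window held it (72.2%). TCACNCCAC, a form of the sterol regulatory element, was found in 1 of those 17 genes, in 0 of those 41 genes, and in 1.22% of all genes. These are matches of letters in this window only.

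Among 20 genes of fatty acid uptake and binding, Cd36 fell and no other member passed. Cd36 lies on the reverse strand at chr5:17781690-17888801 (GRCm38). Its level was 102, 72.4, 77.9 and 96.3 CPM in vehicle and 35.5, 32.2, 41.1 and 34.4 CPM in SSO. Every SSO library was below every vehicle library, the log2 fold change was -1.28 ± 0.16 (SE), and the edgeR adjusted p was 0.0194, with values of 0.00104 to 0.0985 without 1 library. It stayed past the threshold without vehicle 2, 3 or 4 and lost the call without vehicle 1 or any 1 SSO library. The list as a whole had a median of 0.06, or -0.07 without vehicle 1 and 3, with 5 members higher and 3 lower at an unadjusted p under 0.05. Fabp5, a cytosolic fatty acid binding protein, was at 30.5 ± 15.7 CPM in vehicle and 84.4 ± 22.1 CPM in SSO (adjusted p = 0.111).

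Of 32 fatty acid oxidation and ketogenesis genes 0 passed, with 1 higher and 3 lower at an unadjusted p under 0.05 and a median of -0.18. Of 19 lipid droplet coat and lipase genes 0 passed as well, a list that does not hold Pnpla3, which was counted with lipogenesis. Plin2, which coats lipid droplets, did not overlap between the groups, at 584, 321, 481 and 327 CPM in vehicle and 206, 180, 226 and 193 CPM in SSO (adjusted p = 0.0859). Pltp, which moves phospholipid between lipoproteins, was the only called gene among 21 apolipoprotein and lipoprotein assembly genes, at 13.9 ± 1.78 CPM in vehicle and 31.3 ± 8.76 CPM in SSO (edgeR adjusted p = 0.0421), with 19.3% of its exon bases under exons of the opposite strand.

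Genes of varied function outside lipid synthesis rose as well. Chrna4, a subunit of the neuronal nicotinic acetylcholine receptor, lies on the reverse strand at chr2:181018380-181043546. It was at 8.27, 47.3, 13.7 and 4.80 CPM in vehicle and at 546, 645, 462 and 440 CPM in SSO. The lowest SSO library exceeded the highest vehicle library, vehicle 2, and the log2 fold change was 4.82 ± 0.71 (SE, edgeR adjusted p = 0.0371). Neat1, the long noncoding RNA that forms nuclear paraspeckles (chr19:5824708-5845478, reverse strand), was at 605, 609, 944 and 408 CPM in vehicle and at 3067, 2687, 2861 and 2474 CPM in SSO. It was 4.32-fold higher by group means (edgeR adjusted p = 0.0194), and the only called gene in a list of 14 long noncoding RNAs and paraspeckle protein genes. Hes6, a helix-loop-helix factor of the Hes family, rose from 45.5 ± 16.1 to 163 ± 7.32 CPM. Lmntd2, which encodes a lamin tail domain protein, rose from 3.58 ± 1.40 to 19.7 ± 3.47 CPM, and Col27a1, a fibrillar collagen, from 26.1 ± 5.14 to 69.6 ± 3.87 CPM. Col27a1 was the only called gene of 19 collagens, of which 3 were higher and 6 lower at an unadjusted p under 0.05. The collagen list had a median of -0.511, or 0.221 without vehicle 1 and 3.

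Other called genes belong to hepatocyte metabolism and transport. Csad, which makes the taurine precursor hypotaurine, was at 58.6, 86.9, 33.4 and 123 CPM in vehicle and at 276, 374, 348 and 326 CPM in SSO (edgeR adjusted p = 0.0371). Aqp8, a water channel of hepatocytes, rose from 63.5 ± 27.1 to 230 ± 35.1 CPM. Cyp2d9, a cytochrome P450 that is higher in male liver, rose from 126 ± 63.4 to 443 ± 91.3 CPM, and reads may be shared with its close relatives. Slc16a11, a monocarboxylate transporter, rose from 11.7 ± 2.11 to 35.1 ± 14.5 CPM, of which SSO 2 had 56.8 and the other SSO libraries 26.7 to 29.3 CPM. Rdh11 and Cyp26b1, enzymes of retinoid reduction and breakdown, rose 2.36-fold and 2.77-fold by group means. Gapdh, the glycolytic dehydrogenase, rose from 73.8 ± 10.9 to 138 ± 13.6 CPM, the only called gene of 19 in glycolysis. That list had 2 members higher and 3 lower at an unadjusted p under 0.05. Its median log2 fold change was -0.375, or 0.162 without vehicle 1 and 3. Ttc39c, a tetratricopeptide protein, rose from 69.3 ± 34.9 to 238 ± 26.1 CPM.

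Few genes of the wider hepatocyte programmes passed the adjusted test. Of 33 P450 genes, 1 passed, and the median was 0.35, or -0.08 without vehicle 1 and 3. Of 19 bile acid genes 0 passed, with 7 higher and 1 lower at an unadjusted p under 0.05 and a median of 0.65 that became 0.14 without vehicle 1 and 3. Of 32 urea cycle and amino acid genes 1 passed, and of 32 phase II genes 0. Gstm1, a glutathione transferase and the most abundant of the latter, was at 1368 to 3423 CPM in vehicle and 4275 to 5773 CPM in SSO, without overlap (adjusted p = 0.111). Cyp1a2, a P450 of the pericentral zone, ranged from 1101 to 3366 CPM in vehicle and from 3014 to 4447 CPM in SSO (adjusted p = 0.208). Vegfa, the endothelial growth factor, was at 307 ± 111 CPM in vehicle and 590 ± 72.5 CPM in SSO (adjusted p = 0.117).

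Fmn2, which encodes an actin-nucleating formin, had 0 counts in each vehicle library and 25, 40, 14 and 20 counts in SSO. A count of 0 allows up to 3 counts, and the mean of the SSO libraries was at least 8.57-fold higher than the mean of these floors over the 4 vehicle libraries, by counting error only (edgeR adjusted p = 0.0452). This is a low level, at 0.499 to 1.46 CPM in SSO.

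Mitotic genes were lower in SSO at the unadjusted threshold, and few of them passed the adjusted test. Of 49 mitosis and G2/M genes, 3 fell, 0 rose, and 42 had an unadjusted p under 0.05, all lower in SSO, with 13 that did not overlap and a median log2 fold change of -1.40. The called count was 0 without vehicle 1, without vehicle 3 or without any 1 SSO library, 3 without vehicle 4 and 44 without vehicle 2. With library sizes as the only scaling 0 members passed, and with DESeq2 29. Cdk1, the kinase that drives entry into mitosis, was at 13.8, 8.21, 23.2 and 19.1 CPM in vehicle and at 5.57, 2.11, 3.10 and 2.97 CPM in SSO. The groups did not overlap, vehicle 2 lay nearest to SSO, and the log2 fold change was -2.23 ± 0.38 (SE, edgeR adjusted p = 0.0399). Ect2, an activator of RhoA at the cleavage furrow, was at 12.8, 5.99, 8.11 and 8.51 CPM in vehicle and at 1.34, 0.510, 2.67 and 1.57 CPM in SSO (edgeR adjusted p = 0.0459). Ckap2, a spindle protein, was the third called member, at 6.21 ± 3.22 and 0.910 ± 0.358 CPM.

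Called genes outside that list included Aspm and Spag5, which act at spindle poles and fell by 2.70 and 1.68 on the log2 scale. Iqgap3, a scaffold of proliferating cells, fell from 9.62 ± 2.31 to 2.44 ± 0.426 CPM (edgeR adjusted p = 0.0194). Ncapg2, a condensin II subunit, fell from 9.33 ± 3.15 to 2.199 ± 0.474 CPM. Stmn1, which destabilises microtubules, fell from 21.2 ± 6.36 to 6.34 ± 2.33 CPM. Ung, the uracil-DNA glycosylase, fell from 18.9 ± 2.25 to 6.39 ± 1.83 CPM, Ddias, which protects against death after DNA damage, from 4.95 ± 2.07 to 0.744 ± 0.392 CPM, and H2afx, the histone variant that marks DNA breaks, from 18.5 ± 3.56 to 8.08 ± 1.66 CPM. In H2afx 10.2% of the exon bases lie under exons of the opposite strand.

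The best known proliferation markers did not pass. Mki67 was at 31.2, 14.5, 43.9 and 33.3 CPM in vehicle and at 17.2, 15.2, 16.5 and 16.9 CPM in SSO (edgeR adjusted p = 0.130). Vehicle 2 lay below the SSO libraries and the other vehicle libraries above them. Ccnb1, the mitotic cyclin, was at 5.46, 2.496, 7.40 and 11.5 CPM in vehicle and at 0.764 to 2.60 CPM in SSO (adjusted p = 0.106). Top2a, which untangles DNA, was at 7.17 CPM in vehicle 2, at 22.6 to 33.9 CPM in the other vehicle libraries and at 6.97 to 10.9 CPM in SSO. In both of these genes vehicle 2 lay within the range of SSO and the other vehicle libraries above it. Ccnd1, the G1 cyclin, was at 188, 14.2, 75.3 and 16.1 CPM in vehicle and at 4.62 to 7.54 CPM in SSO, without overlap (adjusted p = 0.106), and 23.4% of its exon bases lie under exons of the opposite strand.

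E2f1, a factor that switches on S-phase genes, was reduced from 12.7 ± 4.38 to 3.35 ± 0.781 CPM (edgeR adjusted p = 0.0371). It was the only called gene of 24 G1 cyclins, kinases and inhibitors, of which 11 were lower and 0 higher at an unadjusted p under 0.05. That list had a median of -0.576, or -0.151 without vehicle 1 and 3. Its mean level was 2.55 log2 CPM in vehicle 2, below the SSO values of 2.77 to 2.83 log2 CPM. Of 38 DNA replication and S-phase genes 0 passed, but 25 were lower at an unadjusted p under 0.05 and the median was -1.18, or -0.58 without vehicle 1 and 3. Pcna, the sliding clamp, was at 71.9, 33.3, 77.3 and 47.3 CPM in vehicle and at 27.5 to 33.1 CPM in SSO (adjusted p = 0.111). Tk1, thymidine kinase, went the other way, at 50.1 ± 21.1 and 57.7 ± 9.42 CPM (adjusted p = 0.702). Of 21 p53 target genes 0 passed, with 13 lower and 2 higher at an unadjusted p under 0.05. Their median was -0.869, or -0.403 without vehicle 1 and 3. Cdkn1a, the cell cycle inhibitor p21, was at 80.2, 3.63, 66.6 and 42.0 CPM in vehicle and at 7.05 to 8.88 CPM in SSO, so that vehicle 2 lay below SSO and the others above it.

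The window of 250 bases before the start of Cdk1 (chr10:69352913-69353162, reverse strand, GRCm38.p6 from RefSeq) is shown for the mitotic genes. Capitals mark CCAAT and TTTGAA on either strand, the second being the core of the cell cycle homology region, an element of genes that peak in G2 and M phase.
Cdk1: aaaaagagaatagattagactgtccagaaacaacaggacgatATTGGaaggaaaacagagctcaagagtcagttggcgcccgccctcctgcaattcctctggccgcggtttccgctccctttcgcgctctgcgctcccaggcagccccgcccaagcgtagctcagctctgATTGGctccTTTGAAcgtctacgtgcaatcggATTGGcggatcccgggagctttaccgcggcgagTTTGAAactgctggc
It holds 3 CCAAT matches and 2 TTTGAA matches. TTTGAA was present in 15 of the 41 mitosis and G2/M genes with a window (36.6%) and in 18.3% of all genes with one, and CCAAT in 30 of the 41 (73.2%).

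Chaperones of the endoplasmic reticulum (ER) were lower in SSO at the unadjusted threshold. Of 34 ER chaperone and unfolded protein response genes, 1 fell and 0 rose, while 21 were lower and 1 was higher at an unadjusted p under 0.05. The median log2 fold change was -0.80, or -0.513 without vehicle 1 and 3. Without 1 library the called count went from 0 to 21, the latter without vehicle 2. The called gene was Creld2, an ER protein induced by misfolded proteins, at 179, 52.4, 153 and 176 CPM in vehicle and 38.0, 24.9, 38.0 and 25.4 CPM in SSO. Its groups did not overlap, vehicle 2 was the lowest of its group, and the log2 fold change was -2.15 ± 0.36 (SE, edgeR adjusted p = 0.0390). Hspa5, the main ER chaperone, was at 1170 ± 401 CPM in vehicle and 490 ± 120 CPM in SSO, and Hyou1, its exchange factor, at 304 ± 112 and 127 ± 34.9 CPM (adjusted p = 0.106 for both). The sensor Ern1 was at 54.8 to 69.8 CPM in vehicle and 65.9 to 69.9 CPM in SSO, and its target Xbp1 at 175 to 279 and 159 to 184 CPM. Neither passed. Derl3, an ER degradation factor, was at 27.9, 3.09, 34.5 and 106 CPM in vehicle and at 3.64 to 7.68 CPM in SSO (adjusted p = 0.114). Hsph1, a cytosolic HSP110 chaperone, was reduced from 74.4 ± 27.9 to 26.9 ± 3.37 CPM (SD, n = 4, edgeR adjusted p = 0.0372). No other gene of the 22 cytosolic heat shock genes passed, and 11 of them were lower at an unadjusted p under 0.05.

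The window before the start of Creld2 (chr15:88819396-88819645, forward strand, GRCm38.p6 from RefSeq) is shown for the ER genes. Capitals mark CCAAT and the ER stress response element, which is CCAAT followed by 9 bases of any kind and CCACG and so contains CCAAT, each on either strand.
Creld2: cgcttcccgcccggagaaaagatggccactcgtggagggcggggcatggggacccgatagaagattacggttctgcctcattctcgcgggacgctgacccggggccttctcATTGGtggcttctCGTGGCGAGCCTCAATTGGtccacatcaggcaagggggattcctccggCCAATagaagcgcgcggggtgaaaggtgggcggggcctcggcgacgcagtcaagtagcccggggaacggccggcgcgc
The element was present in 9 of the 29 ER genes with a window and in 0.130% of all genes with one. CCAAT was present in 24 of the 29 (82.8%) and in 37.5% of all genes with a window.

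**Figure D2:**
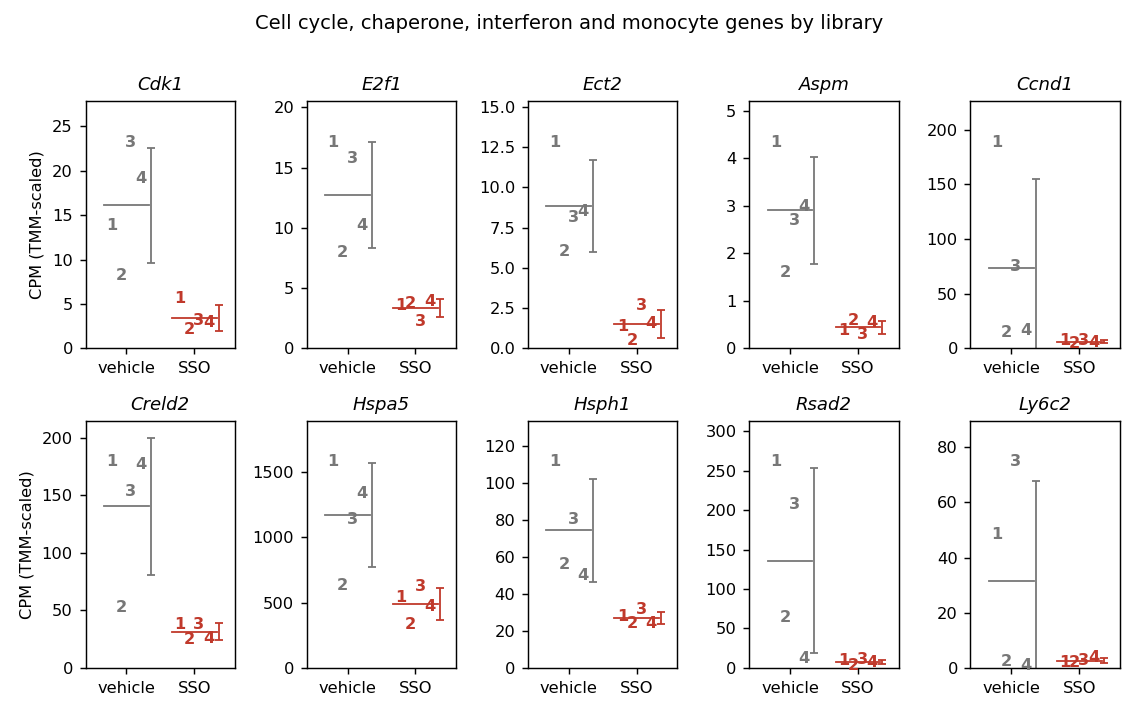
Levels in TMM-scaled CPM on linear axes from 0, drawn as library numbers with the group mean and SD (grey, vehicle; red, SSO). In Cdk1, E2f1, Ect2, Aspm, Ccnd1, Creld2, Hspa5, Hsph1 and Rsad2 all SSO libraries lie below all vehicle libraries, and in Ly6c2 only vehicle 1 and 3 stand above SSO.

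Il6 was present at low level. Vehicle 1 to 4 held 32, 28, 21 and 20 counts and SSO 1 to 4 held 1, 1, 1 and 2 counts. The ratio of vehicle to SSO was 18.9, with a 95% counting interval of 7.83 to 59.4 (exact binomial), and the edgeR adjusted p was 0.0371. It was the only called gene of 23 in the list of interleukin 6 family and TNF priming signals, of which 12 were lower and 0 higher at an unadjusted p under 0.05. Over these 23 genes the median was -0.511, and it shrank to -0.13 without vehicle 1 and 3. They averaged 4.31, 3.52, 4.37 and 3.08 log2 CPM in vehicle 1 to 4 and 3.06 to 3.16 log2 CPM in SSO. Vehicle 4 was thus inside the SSO range, and vehicle 1 and 3 stood highest. Il11ra1, the receptor subunit for the related cytokine interleukin 11, rose from 50.6 ± 14.7 to 112 ± 9.24 CPM (edgeR adjusted p = 0.0459). C4a, a complement C4 gene, rose from 15.2 ± 3.36 to 32.6 ± 2.21 CPM, and H2-Q7, a class Ib MHC gene, from 73.6 ± 15.98 to 171 ± 23.7 CPM. Reads of both may be shared with near-identical neighbours.

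Interferon and monocyte genes had a wide spread between vehicle libraries, and none passed the test. Of 31 type I interferon-stimulated genes 0 passed, while 27 were lower and 0 higher at an unadjusted p under 0.05. The median log2 fold change was -2.16, or -0.987 without vehicle 1 and 3. The mean level of the list was 6.72, 6.00, 6.94 and 3.42 log2 CPM in vehicle 1 to 4 and 3.66 to 4.45 log2 CPM in SSO. Vehicle 4 thus lay below the SSO libraries and the other vehicle libraries above them. Without vehicle 4 alone 27 members were called lower. Ifit1, an interferon-induced RNA-binding protein, was at 253, 236, 298 and 8.99 CPM in vehicle and at 8.59 to 22.2 CPM in SSO (edgeR adjusted p = 0.106), and Isg15, a ubiquitin-like protein, at 258, 152, 336 and 13.5 CPM in vehicle and 12.8 to 32.6 CPM in SSO. Rsad2, the antiviral enzyme viperin, did not overlap, at 261, 63.5, 208 and 12.2 CPM in vehicle and 3.68 to 10.1 CPM in SSO (adjusted p = 0.0859).

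Of 19 recruited monocyte and macrophage genes 0 passed, 14 were lower at an unadjusted p under 0.05, and the median was -2.36, or 0.04 without vehicle 1 and 3. Ly6c2, the marker of inflammatory monocytes, was at 48.4, 2.18, 74.7 and 0.720 CPM in vehicle and at 1.97 to 3.72 CPM in SSO. Chil3, a chitinase-like protein of monocytes, was at 81.2, 1.18, 82.0 and 4.29 CPM in vehicle and at 1.72 to 2.15 CPM in SSO, and Ccr2, the receptor for monocyte recruitment, at 20.5, 2.86, 22.9 and 7.75 CPM in vehicle and 2.08 to 3.99 CPM in SSO. The high values in all 3 genes came from vehicle 1 and 3. Fn1, fibronectin, which hepatocytes also secrete, was at 856 to 1688 CPM in vehicle and 647 to 784 CPM in SSO (adjusted p = 0.180). Of 25 lipid-associated macrophage genes, 1 was called, which was Cd36. At an unadjusted p under 0.05, 12 of the 25 were lower and 1 was higher. That list had a median of -0.724, or -0.16 without vehicle 1 and 3, where 2 members were called higher and 1 lower. Trem2 and Mmp12, genes of lipid-laden macrophages with large fold changes, were also highest in vehicle 1 and 3. Trem2 was at 21.8, 0.635, 31.7 and 3.29 CPM and Mmp12 at 37.3, 0.817, 36.7 and 3.05 CPM in vehicle. Trem2 was at 0.214 to 1.10 CPM and Mmp12 at 0 to 0.223 CPM in SSO. Mmp12 did not overlap between the groups. Its log2 fold change was -7.22 (edgeR adjusted p = 0.0809), or -3.89 without vehicle 1 and 3. Krt8 and Krt18, keratins of the liver epithelium, also stood highest in vehicle 1 and 3, Krt8 with 1309 and 1602 CPM against 316 and 450 CPM in vehicle 2 and 4 and 207 to 332 CPM in SSO, and Krt18 with 930 and 1349 CPM against 369 and 317 CPM in vehicle 2 and 4 and 239 to 349 CPM in SSO.

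**Figure D3:**
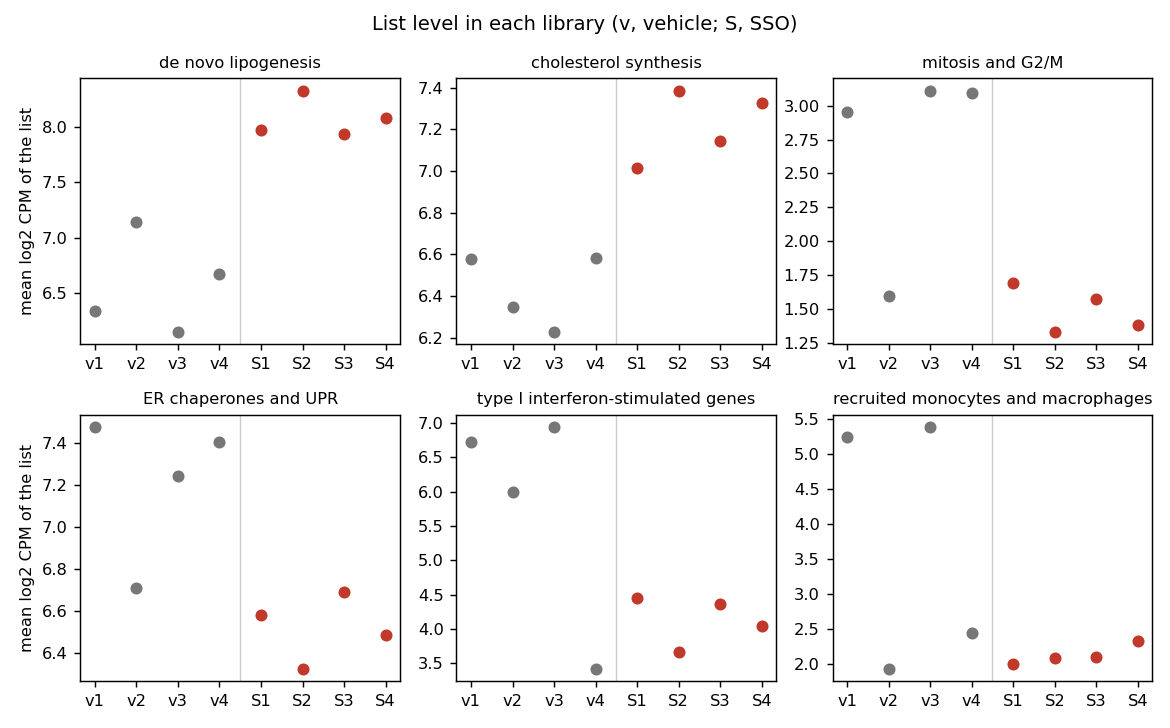
Mean log2 CPM of the members of 6 gene lists in each library (v1 to v4, vehicle; S1 to S4, SSO), on axes that differ between panels. Lipogenesis and cholesterol genes separate all SSO from all vehicle libraries, and the mitosis list has vehicle 2 at 1.59 among SSO values of 1.33 to 1.69. In the monocyte list vehicle 1 and 3 stand highest, at 5.25 and 5.39. Vehicle 4 at 2.445 lies slightly above the SSO values of 2.00 to 2.34, and vehicle 2 at 1.93 lies below them.

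Markers of the cell types of liver were compared as sums over the markers of each type. The 6 hepatocyte markers, led by Alb, summed to 66620 to 103900 CPM in vehicle and 69320 to 88830 CPM in SSO, and 0 of the 6 differed at an unadjusted p under 0.05. The 5 Kupffer cell markers summed to 391, 93.2, 299 and 81.9 CPM in vehicle 1 to 4 and to 160 to 283 CPM in SSO, with 0 of 5 different at that threshold. Clec4f, the lectin that defines Kupffer cells, was at 98.3, 51.0, 89.1 and 41.9 CPM in vehicle and 107, 146, 68.8 and 92.4 CPM in SSO. The 5 monocyte markers summed to 391.7, 44.6, 446 and 61.7 CPM in vehicle and to 24.6 to 31.99 CPM in SSO, with 4 of 5 lower at an unadjusted p under 0.05. Without Lyz2, which had very few counts in SSO 1 and 3, the sum was 203, 21.6, 257 and 20.2 CPM in vehicle and 18.6 to 28.3 CPM in SSO, so that vehicle 2 and 4 lay within the SSO range. Endothelial markers summed to 71.4 to 155 CPM in vehicle and 79.6 to 149 CPM in SSO, stellate cell markers to 399, 109, 362 and 175 CPM in vehicle and 136 to 228 CPM in SSO, neutrophil markers to 12.4, 0.907, 16.5 and 0.377 CPM in vehicle and 3.06 to 7.68 CPM in SSO, and lymphocyte markers to 1.85 to 6.00 and 2.60 to 4.69 CPM. Among 6 markers of other tissues, Prss1 and Adipoq, of pancreas and fat, were at 0 in all libraries, and the sum was 13.9 to 22.4 CPM in vehicle and 12.1 to 23.2 CPM in SSO. Vehicle 1 and 3 were thus the highest vehicle libraries in monocyte, Kupffer, stellate, endothelial and neutrophil markers, and the part of these levels in the other differences was not tested. Without them the list of 21 Kupffer cell genes had a median log2 fold change of 0.93 with 2 called higher, in place of -0.25 with 0 called. Without the same libraries, the median of the lipogenesis list was 0.98 and that of the cholesterol list 0.67, with 5 and 4 members called higher, whereas the mitosis list had a median of -1.02 with 0 called. Cd36 had a log2 fold change of -1.24 there, with an edgeR adjusted p of 0.0129. In that fit 28 of the 71 genes kept their call. Fasn, Pnpla3, Elovl6 and Chrna4 did not, with edgeR adjusted p-values of 0.084, 0.109, 0.122 and 0.210.

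**Figure D4:**
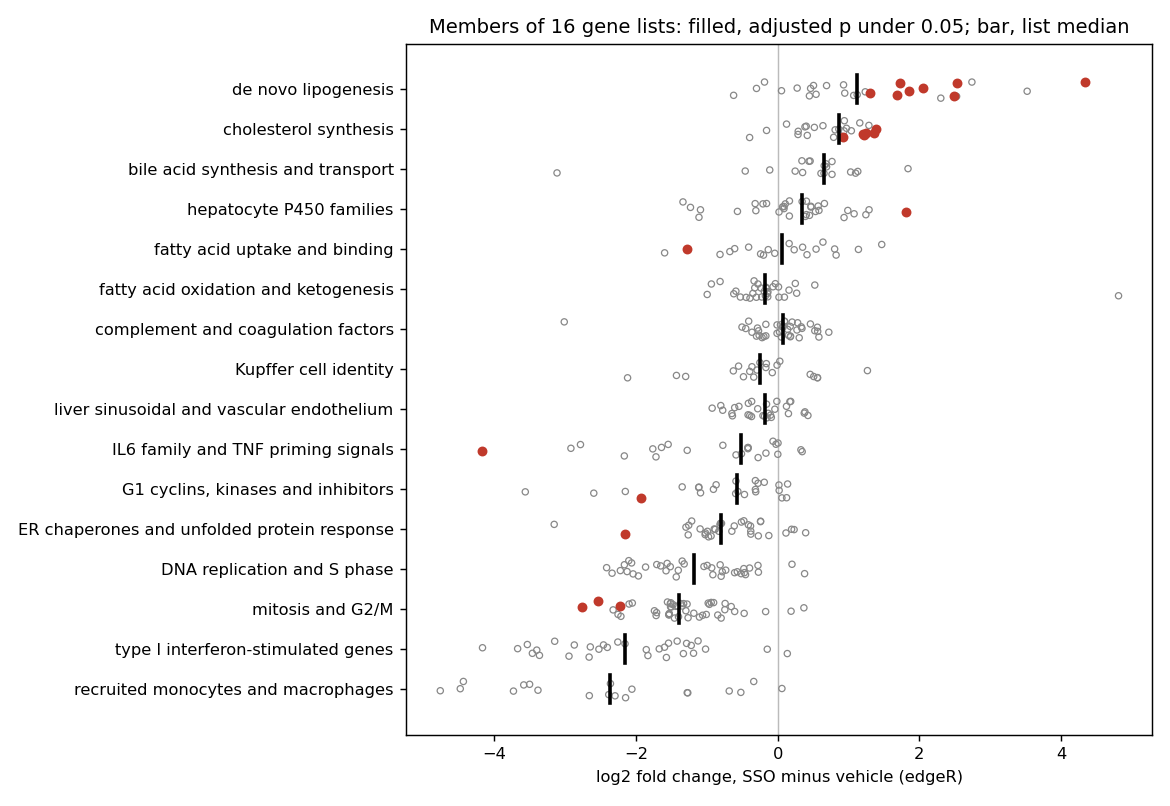
Each circle is a tested gene of 1 of 16 lists, placed by its log2 fold change (SSO minus vehicle, edgeR), with a filled circle for an adjusted p under 0.05 and a bar at the list median. The medians run from 1.12 for lipogenesis to -2.36 for recruited monocytes, while the filled circles are most numerous in lipogenesis (8) and cholesterol synthesis (6).

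A second experiment of the series, on liver 40 hours after PHx from C57BL/6J mice with the same age and sex labels, with 3 libraries after 7 days on a high-fat diet (HFD) and 3 on chow, shares no library with this one. One edgeR fit of all 14 libraries and 16973 genes compared the effects, taken as the SSO effect minus the HFD effect. The difference was above 0 at an adjusted p under 0.05 in 252 genes (1.48%) and below 0 in 383 genes (2.26%). The experiments differ in hour, treatment and table, and these cannot be told apart. Xist and the Y-linked genes were not examined in the diet libraries, so a difference of sex between the experiments was not tested. The difference was above 0 in 13 of 27 lipogenesis genes and in 17 of 25 cholesterol genes, and below 0 in 46 of 49 mitosis genes. Over all genes of that fit, the HFD effect was higher in 153 (0.901%) and lower in 49 (0.289%), with a median of -0.04. The lists' median log2 fold changes under HFD were -0.56, -1.10 and 3.01. The HFD effect alone passed in 0 lipogenesis genes, in 10 cholesterol genes, all lower, and in 42 mitosis genes, all higher.

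In single genes, Mvd had a log2 fold change of 1.21 under SSO and of -2.15 under HFD, a difference of 3.36 ± 0.28 (SE, edgeR adjusted p = 1.9e-05). Fasn had 2.54 and -1.71, a difference of 4.25 ± 0.71 (edgeR adjusted p = 0.00346). Cdk1 had -2.23 and 2.91, a difference of -5.14 ± 0.60 (edgeR adjusted p = 3.1e-04). Foxm1, a transcription factor of G2 phase, had -1.12 and 3.10, a difference of -4.21 ± 0.65 (edgeR adjusted p = 0.00205). For Cd36 the values were -1.28 and 0.50, and the difference of -1.78 ± 0.56 did not pass (adjusted p = 0.0961). For Creld2 they were -2.15 and -0.12, and the difference did not pass either (adjusted p = 0.159), nor did that of any of the 34 ER genes.

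**Figure D5:**
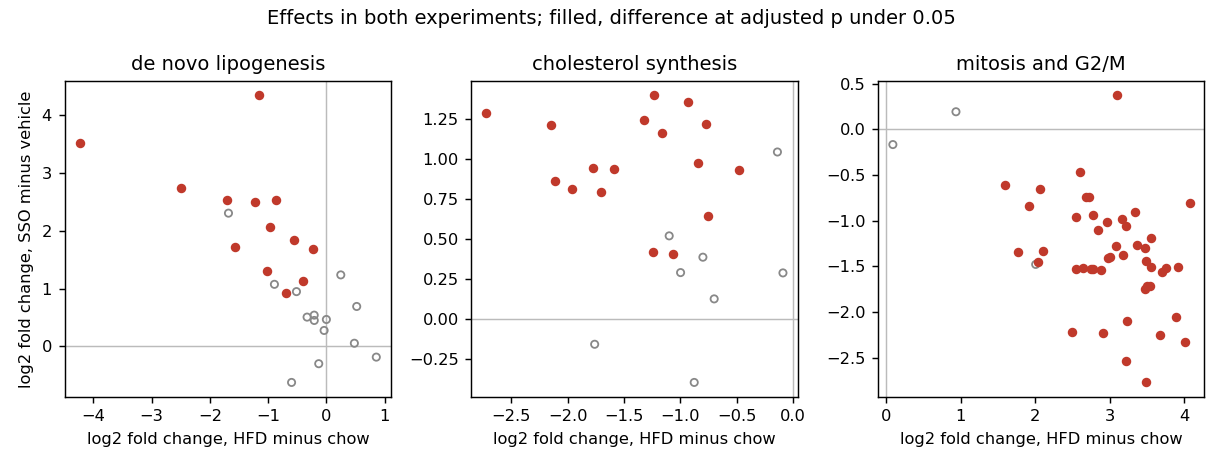
Each circle is a gene, with its log2 fold change under HFD (x axis) and under SSO (y axis) from 1 fit of both experiments, filled where the difference of the effects had an adjusted p under 0.05. Of the cholesterol genes 17 of 25 are filled and all 25 lie below 0 under HFD, and of the mitosis genes 46 of 49 are filled and all 49 lie above 0 under HFD.

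Lower genes with other functions were Tm4sf4, a tetraspan-like protein of hepatocytes and bile ducts, at 172 ± 48.4 CPM in vehicle and 68.8 ± 5.90 CPM in SSO, Nap1l1, a histone chaperone, at 64.0 ± 20.9 and 26.8 ± 2.58 CPM, and Slc25a30, a mitochondrial carrier, at 27.8 ± 13 and 6.50 ± 1.81 CPM. Their edgeR adjusted p-values were 0.0371, 0.0461 and 0.0400, and none of these genes overlapped between the groups. At the threshold, Ttc39c was the last gene inside with an adjusted p of 0.0461, and Cdcp1, a membrane protein with CUB domains, was the first outside with 0.0527.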

How the data were processed

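Gene-level RNA-seq counts of the inhibitor experiment (4 vehicle and 4 SSO libraries) and, for 1 joint fit, of the diet experiment (3 chow and 3 HFD libraries) were used. Libraries were made from poly(A) RNA, per the labels' protocols. The authors deposited raw counts, 1 whole number per Ensembl gene and library. Per the submitters' processing notes, the tools were featureCounts 2.0.2, HISAT2 2.2.1, Trim Galore 0.6.1 and, with no version, DESeq2, with build GRCm38. Strand setting and annotation release: not given in the sources used here.

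Genes with at least 10 counts in at least 4 libraries were tested with edgeR 4.0.16 in R 4.3.3 (quasi-likelihood, robust, TMM scaling, vehicle against SSO, no covariate), and called at a Benjamini-Hochberg adjusted p under 0.05. CPM use TMM-scaled library sizes unless stated to be of the library total. SE is the absolute log2 fold change divided by the square root of F. Alternatives were library size and RLE scaling, leaving out mitochondrially encoded genes, other filters, no robust spread, DESeq2 1.42.0, limma 3.58.1 (voom with sample weights), a block on the library number, and leaving out each library. Of the 55487 identifiers, 55141 had a symbol. Coordinates are from GENCODE M21 (GRCm38), promoter windows from RefSeq. The procedure was tested on simulated data with 200 changed genes. Each simulated gene had the same dispersion in both groups, so that test does not cover the unequal spread of the vehicle and SSO libraries.

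Members and 53 gene lists were chosen with earlier results of these data known, and lists are described by counts and medians only. The naming rule took Cd36, Ern1, Xbp1, Ccnd1, Mki67 and Ccnb1, then up to 12 called genes per direction by fold change whose mean log2 CPM was 3 or more and whose groups did not overlap, up to 4 called genes per list by smallest p, and in lists without a call the most abundant members. Genes of the text outside this rule were chosen after their values were seen: Mid1ip1, Thrsp, Lpin1, Acaca, Scd1, Srebf1, Mlxipl, Lss, Dhcr7, Srebf2, Fabp5, Ttc39c, Slc16a11, Rdh11, Cyp26b1, Il11ra1, C4a, H2-Q7, Fmn2, Aspm, Spag5, Iqgap3, Ncapg2, Ddias, Top2a, Foxm1, Cdkn1a, Hspa5, Hyou1, Derl3, Rsad2, Ifit1, Isg15, Ly6c2, Chil3, Ccr2, Trem2, Mmp12, Lyz2, Clec4f and Cdcp1. In a library, 3 counts are 0.0987 to 0.119 CPM of its total; such floors and intervals cover counting error only.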

Additional observations from a re-analysis of the deposited data

Results flagged for a closer look

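Single libraries that stood apart from the other 3 of their group by more than Dixon's 95% critical value for 4 samples were found in 9 of 186 groups of values checked, and chance alone gives about 1 in 20. SSO 2 was the library in 4 of the 9. Aacs was at 236 CPM in SSO 2 and at 146 to 161 CPM in the other SSO libraries. Slc16a11 was at 56.8 CPM in SSO 2 against 26.7 to 29.3 CPM, Slc25a30 at 3.82 CPM against 7.21 to 7.77 CPM, and Derl3 at 7.68 CPM against 3.64 to 4.14 CPM.

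Pnpla3 was at 74.2 CPM in SSO 1 against 41.1 to 44.4 CPM in the other SSO libraries, and Il6 at 0.0715 CPM in SSO 4 against 0.0356 to 0.0371 CPM, which is a difference of 1 count. Among vehicle libraries, Elovl6 was at 101 CPM in vehicle 2 against 41.8 to 47.0 CPM. Cyp2d9 was at 220 CPM in vehicle 4 against 81.0 to 102 CPM, and Pltp at 11.2 CPM in vehicle 3 against 14.6 to 15.0 CPM. In each of these genes except Derl3 the groups did not overlap with the library included.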

How the results depend on the processing

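The 50 higher and 21 lower calls became 33 and 4 with scaling by library size alone, 104 and 101 with a filter of 1 count in any library, 456 and 766 with DESeq2, and 1073 and 1214 with limma-voom and sample weights. RLE scaling, leaving out mitochondrially encoded genes and filterByExpr gave 50 and 21, and no robust spread 52 and 21. Leaving out 1 library gave 0 to 1149 higher and 0 to 1515 lower. Alternatives chosen after seeing the data gave 41 and 12 without vehicle 1 and 3, and 281 and 589 with the spread shared with the diet experiment. With that shared spread 68 of the 71 genes kept their call. Cd36, Aqp8 and Mid1ip1 did not, with edgeR adjusted p-values of 0.0584, 0.1115 and 0.0553. The difference of the SSO and HFD effects was above 0 in 131 to 1012 genes and below 0 in 254 to 1509 without 1 library. The cause of these shifts was not tested. Library numbers did not pair the groups, since same-numbered deviations correlated at -0.0742 to 0.0275, and a replicate block gave 33 higher and 14 lower, with 31 of the 71 genes among them. Among the genes named in the text, signs turned for 4, none of them called: with library-size scaling Ern1 became -0.048 and Srebf2 -0.05, and without vehicle 1 and 3 Tk1 became -0.23 and Ly6c2 0.88. Within each group, every pair of libraries differed by more than sampling noise. Depth limits genes of a few counts, such as Il6 and Fmn2.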

Other observations

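Lyz2, the lysozyme of monocytes, macrophages and neutrophils, had 1, 311, 12 and 224 counts in SSO 1 to 4, and 5710, 506, 6945 and 1213 counts in vehicle 1 to 4. In the diet experiment every library held 606 to 1013 counts of Lyz2. SSO 1 and SSO 3 therefore stood far below SSO 2 and SSO 4, while Clec4f, of Kupffer cells, was at 107 and 68.8 CPM in SSO 1 and 3 and at 146 and 92.4 CPM in SSO 2 and 4. Lyz2 had a log2 fold change of -4.48 ± 1.29 (SE) and an edgeR adjusted p of 0.129, with values of 0.0557 to 0.305 when 1 library was left out. The origin of the low counts in SSO 1 and 3 was not tested.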
